A study of Homo sapiens with 56 samples.

Results

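The lysosome and vacuolar proton pump genes are a list of 42 genes in 8 roles: the membrane sector, the catalytic sector and the accessory subunits of the proton pump, lysosomal membrane proteins, cathepsins and peptidases, glycosidases, lipid-handling proteins, and the MiT/TFE transcription factors. Each gene was followed through the probe set that carried its symbol alone and had the highest mean signal over all arrays. Of the 42 genes, 41 had such a probe set, among 19775 genes with one on the array. ATP6V1F, a catalytic-sector subunit, was represented only by a probe set shared with another symbol and was not used.

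The study treated cutaneous T-cell lymphoma lines with MRG-106 (also called cobomarsen), an antisense oligonucleotide that blocks miR-155, and measured total RNA on Affymetrix expression arrays. The groups used here were HuT102 (written HuT-102 in some labels), MJ and MY-LA with MRG-106 at day 8 and at day 4, HuT78 with MRG-106 at day 8, and the same 4 lines and days untreated. Each of the 14 groups held 4 arrays, 56 in all. Cells grew in plate wells; at 96 hours all wells of a line were diluted by the factor that the untreated wells needed, into medium that again held the inhibitor, and fresh medium followed 48 hours later. These are established lines, each standing for 1 tumour. The labels give no dose and do not say whether the 4 arrays of a group came from separate cultures, so the p-values measure only the spread between these arrays, which may be technical. No arrays of a control oligonucleotide were analysed here, so inhibition of miR-155 and a response to oligonucleotide uptake as such cannot be told apart.

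Lysosomes are the acidic organelles in which cells break down proteins, sugars and lipids. Their acidity comes from the vacuolar proton pump, whose catalytic sector uses ATP in the cytosol and turns a ring in the membrane sector that carries protons inward; the pump is regulated by detaching the catalytic sector. The transcription factors TFEB, TFE3 and MITF bind an E-box-like element in the promoters of many of these genes, and are held in the cytosol by mTORC1, a kinase that docks on the lysosome. In T cells, lysosomes also supply the secretory granules and end autophagy.

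The mature sequence of the inhibited microRNA is shown first, because its seed (bases 2 to 8, in capitals) is the part by which it recognises messenger RNAs. It lies at chr21:25573983-25574006 on the plus strand of GRCh38.p14, and the sequence is RefSeq's. Sites for the seed in the members were not analysed here.
hsa-miR-155-5p: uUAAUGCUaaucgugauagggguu

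Promoter windows from RefSeq (GRCh38.p14), covering 250 bases before to 50 after each start, were matched to 31 of the members. The E-box core CACGTG, searched on both strands, was in the windows of 10 of them (32.3%), against 8.77% of 27305 genes. The longer palindrome TCACGTGA, which contains that core, was in 6 members (19.4%), against 1.18% of genes. These matches are shown because they include 2 members that rose with MRG-106 in 3 lines, ATP6V1G1 and LAMP1. LAMP1, GAA and MCOLN1 hold 2 matches each, of which the one farthest before the start is shown. Capitals mark the palindrome, each sequence reads along the gene's strand, and the positions are chr9:114587692-114587735 (plus strand) for ATP6V1G1, chr13:113297192-113297235 (plus strand) for LAMP1, chr20:45891291-45891334 (plus strand) for CTSA, chr17:80101486-80101529 (plus strand) for GAA, chr16:67481192-67481235 (minus strand) for ATP6V0D1, chr19:7522564-7522607 (plus strand) for MCOLN1. A match is a description of these letters, not evidence of binding. The letters were searched because such an element is known in promoters of many of these genes, so their higher share here tests nothing. The members also had 47 windows for 31 genes, against 35116 windows for 27305 genes.
ATP6V1G1: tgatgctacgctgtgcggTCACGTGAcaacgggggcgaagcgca
LAMP1: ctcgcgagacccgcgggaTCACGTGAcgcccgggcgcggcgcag
CTSA: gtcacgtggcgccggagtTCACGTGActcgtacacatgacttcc
GAA: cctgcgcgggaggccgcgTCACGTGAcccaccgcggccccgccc
ATP6V0D1: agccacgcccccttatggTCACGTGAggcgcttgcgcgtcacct
MCOLN1: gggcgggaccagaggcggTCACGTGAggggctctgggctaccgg

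Array scaling and GAPDH 3′ to 5′ ratios were close across the series, while ACTB ratios and median signals varied more. ACTB 3′ to 5′ ratios ran from 0.990 to 1.29 and median signals from 56.4 to 91.7. The highest ACTB ratio and the lowest median were both among the HuT78 MRG-106 arrays. The trimmed mean signal was 499.9 on every array, upper quartiles lay between 380 and 466, and GAPDH 3′ to 5′ ratios between 0.837 and 0.990. The probe set of the miR-155 host transcript averaged 11499 to 29906 in the groups of HuT102, MJ and MY-LA, and 36.2 with MRG-106 and 29.9 untreated in HuT78. Of 13 T-cell markers, 12 had a probe set and 7 to 11 of them reached signal 74.0, the median of all values, in each group. Of 10 monocyte and macrophage markers, 8 had a probe set, only CSF1R and ITGAM reached that level in any group, and their summed signal was 222 to 877 per array. One set of arrays stood apart: the HuT78 MRG-106 arrays 2, 3 and 4 had upper quartiles of 380, 385 and 382, against 431 on array 1 and 422 to 443 on the untreated HuT78 arrays. HuT78 values are therefore given with all arrays and with array 1 alone as the treated sample.

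More members rose than fell with MRG-106 in each of the 3 lines with abundant miR-155 host transcript. These are measurements of whole cultures, in which fewer cells with a transcript and less of it per cell cannot be told apart. Changes are log2 differences of (signal + 16), MRG-106 minus untreated. They were called at an adjusted p under 0.05 in limma, fitted once over all 56 arrays, with Benjamini-Hochberg adjustment over all genes whose mean reached signal 74.0. In HuT102 at day 8, 22 of 41 members were called higher and 3 lower, beside 19.0% and 21.2% of all 11671 genes tested. At day 4 the HuT102 counts were 13 higher and 0 lower of 41, beside 10.0% and 13.0% of genes; limma gave 3 members lower at an unadjusted p under 0.05.

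In MJ at day 8, 18 of 40 members were called higher and 6 lower, beside 15.1% and 18.6% of genes. At day 4, 17 of 41 were called higher and 6 lower in MJ, beside 13.0% and 14.2% of genes. In MY-LA at day 8, 18 of 37 members were called higher and 5 lower, beside 23.5% and 18.3% of genes. At day 4 the MY-LA counts were 10 higher and 5 lower of 36, beside 13.4% and 12.9%. The counts called lower lie near or below the share of all genes called lower. The median member change was 0.32 in HuT102, 0.13 in MJ and 0.18 in MY-LA at day 8, while the median of all genes tested lay within 0.05 of 0 in all 7 comparisons.

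**Figure D1:**
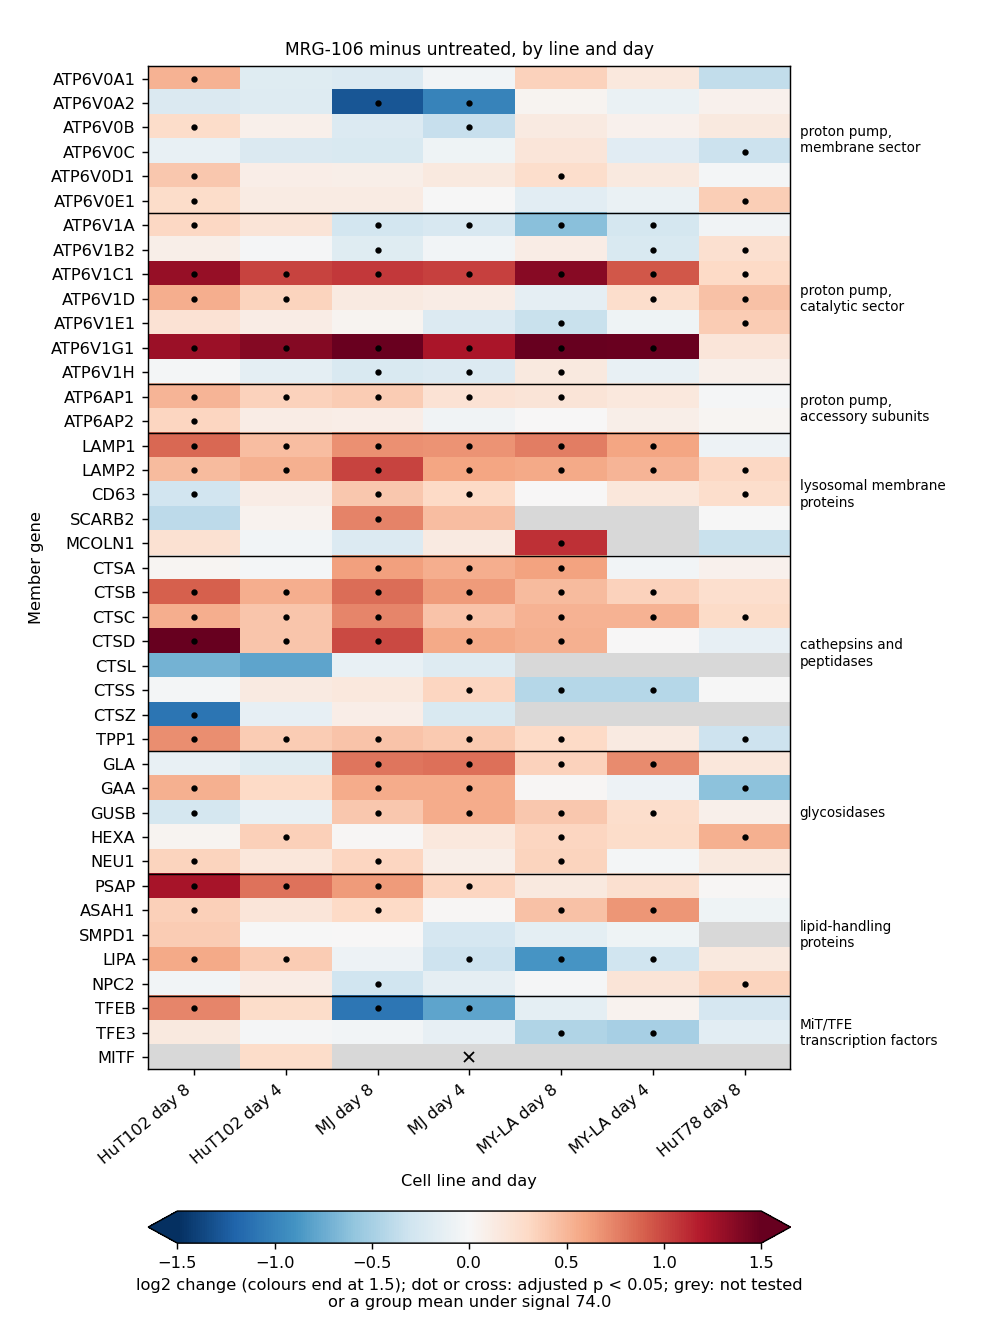
Log2 change of (signal + 16), MRG-106 minus untreated, for 41 members (rows, grouped by role) in 7 comparisons of line and day (columns). Dots mark calls at adjusted p under 0.05 in limma and grey marks genes not tested or with a group mean under signal 74.0 (a cross there is a call). ATP6V1C1 and ATP6V1G1 are red across HuT102, MJ and MY-LA, while TFEB and LIPA are red in HuT102 and blue in another line.

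A group of 6 members, ATP6V1C1, ATP6V1G1, CTSB, CTSC, LAMP1 and LAMP2, were called higher in all 6 comparisons of HuT102, MJ and MY-LA. They make up 16.7% of the 36 members tested in all 6, where 230 of 9766 genes (2.36%) showed that pattern. Of 18 tests of the other CTSC probe sets, 9 were called higher, 2 lower (both in MY-LA at day 8) and 7 not called. No member was called lower in all 6, against 94 genes (0.963%). ATP6AP1, CTSD and TPP1 were called higher in 5. ATP6V0C, CTSL and SMPD1 were called in none of the 6, and 8 members (ATP6V0B, ATP6V1A, ATP6V1H, CD63, CTSS, GUSB, LIPA and TFEB) were called in both directions. The shares of all genes called higher in 5, in none or in both directions were not counted, so these counts describe the members only.

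In the catalytic sector, 2 of the 7 measured subunits carried most of the change. ATP6V1G1 encodes the G subunit of the peripheral stalk that holds the catalytic head still. In HuT102 at day 8 it read 9597, 9894, 11687 and 9372 with MRG-106, against 3830, 3975, 4246 and 4479 untreated. The groups lie far apart, and the change was 1.29 ± 0.07 (SE, n = 4 arrays a group; adjusted p = 7.43e-22, limma), a factor of 2.44. Its signals in MJ at day 8 were 9315, 8760, 8954 and 9399 with MRG-106, against 3233, 3244, 3297 and 3178 untreated, a log2 change of 1.49. For MY-LA at day 8 they were 8933, 8419, 8939 and 9233 with MRG-106, against 2772, 2940, 3444 and 3318 untreated, a change of 1.51. Every treated array of these lines is more than 2-fold above every untreated one of its line at that day. At day 4 the changes were 1.38 in HuT102, 1.23 in MJ and 1.48 in MY-LA. The gene's other probe set was called higher in all 6 comparisons too.

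ATP6V1C1 encodes the C subunit, which clamps the stalks together and leaves when the pump is taken apart. In HuT102 at day 8 it read 3523, 3447, 3403 and 2439 with MRG-106, against 1338, 1212, 1288 and 1251 untreated. The 4th treated array is the low one, yet still above every untreated array. The change was 1.31 ± 0.08 (SE; adjusted p = 2.1e-19, limma). MY-LA arrays at day 8 read 3108, 2891, 2743 and 2917 with MRG-106, against 1096, 1046, 1246 and 1105 untreated, a change of 1.37. MJ arrays at day 8 read 2410, 2284, 2188 and 2376 with MRG-106, against 1133, 1050, 1153 and 1069 untreated, a change of 1.06. Its other probe sets were tested 18 times over the 6 comparisons and called higher in all 18.

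The remaining catalytic-sector subunits moved less and not together. ATP6V1A, the ATP-hydrolysing subunit, was called higher in HuT102 at day 8 (0.31) and lower in MJ (-0.28 at day 8 and -0.24 at day 4) and MY-LA (-0.62 at day 8 and -0.26 at day 4). Its MY-LA signals at day 8 were 3940, 4469, 3778 and 4232 with MRG-106, against 6009, 6118, 6669 and 6472 untreated, with no overlap. The other tested ATP6V1A probe set was called lower at both days in MJ and MY-LA. In HuT102 at day 8 it was not called. ATP6V1B2, the partner subunit that binds ATP without hydrolysing it, fell in MJ at day 8 (-0.18) and in MY-LA at day 4 (-0.22). ATP6V1D, of the central stalk, rose in HuT102 by 0.55 at day 8 and 0.34 at day 4, and in MY-LA by 0.26 at day 4. Of 6 tests of its other probe sets there, 2 were called higher and 4 were not called. ATP6V1E1, a second stalk subunit and the binding partner of the G subunit, was called only in MY-LA at day 8 among these 6 comparisons, where it fell by 0.33. ATP6V1H, a regulatory subunit, fell in MJ (-0.22 at day 8, -0.20 at day 4) and rose in MY-LA at day 8 (0.14). None of the 3 tests of its other probe sets there was called, and its MY-LA groups overlap.

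In the membrane sector, HuT102 at day 8 gave 4 higher calls of 6: ATP6V0A1 (0.52), ATP6V0D1 (0.40), ATP6V0B (0.28) and ATP6V0E1 (0.27). The other probe sets of ATP6V0E1, 6 in number, were not called there, nor was the other one of ATP6V0A1 (0.38), whose groups overlap. ATP6V0D1 joins the rotating ring to the central stalk, ATP6V0B is a subunit of that ring, and ATP6V0A1 is an isoform of the a subunit that forms the proton path. ATP6V0D1 was also called higher in MY-LA at day 8 (0.26). ATP6V0A2, the a-subunit isoform best known from the Golgi and endosomes, fell in MJ. At day 8 it read 851, 771, 666 and 752 with MRG-106 in MJ, against 1817, 1999, 1803 and 1857 untreated. All 4 treated arrays lie below 50% of the lowest untreated array, and the change was -1.28 ± 0.10 (SE; adjusted p = 1.29e-15, limma). It fell at day 4 too (adjusted p = 1e-11, limma), and 4 of 8 tests of its other probe sets in MJ were called lower, with the other 4 not called. The proteolipid ATP6V0C was called in none of the 6.

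The accessory subunit ATP6AP1, needed to assemble the pump, was called higher in HuT102 (0.51 at day 8, 0.35 at day 4), in MJ (0.38 at day 8, 0.22 at day 4) and in MY-LA at day 8 (0.20). Its partner ATP6AP2, the prorenin receptor, was called only in HuT102 at day 8 (0.32).

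Among lysosomal membrane proteins, the 2 abundant glycoproteins that line the lysosome rose in all 3 lines. LAMP1 in HuT102 at day 8 read 18363, 19017, 18004 and 19273 with MRG-106, against 10719, 10263, 9998 and 10103 untreated. MY-LA at day 8 gave 13055, 13642, 14036 and 12488 with MRG-106, against 8424, 7944, 7486 and 7351 untreated. The groups do not overlap in either line, and the changes were 0.86 and 0.77 (adjusted p = 1.05e-12 and 4.62e-11, limma). MJ gave 0.68 at day 8, and 13 of 18 tests of the other LAMP1 probe sets were called higher, with the other 5 not called. LAMP2, which also carries chaperone-mediated autophagy, changed most in MJ at day 8, where it read 2792, 3083, 2844 and 3396 with MRG-106, against 1373, 1414, 1683 and 1520 untreated. That change was 1.01 ± 0.11 (SE; adjusted p = 5.32e-11, limma), and 17 of 18 tests of the other LAMP2 probe sets over the 6 comparisons were called higher.

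The tetraspanin CD63 rose in MJ (0.40 at day 8, 0.29 at day 4) and fell in HuT102 at day 8 (-0.29). SCARB2, the receptor that carries glucocerebrosidase to the lysosome, read 3641, 3753, 3765 and 3566 with MRG-106 in MJ at day 8, against 2175, 2196, 2157 and 2242 untreated, a change of 0.74. In HuT102 at day 8 SCARB2 averaged 2751 with MRG-106 and 3622 untreated. Those groups do not overlap, but the change was not called (-0.39, adjusted p = 0.0900, limma). In MY-LA the SCARB2 probe set was near the bottom of the scale, with group means of 14.7 with MRG-106 and 24.8 untreated at day 8. MCOLN1, a calcium channel of the lysosomal membrane, was called higher in MY-LA at day 8, where it read 112, 230, 215 and 256 with MRG-106, against 129, 47.3, 75.9 and 94.8 untreated. There the groups overlap and the signals are low.

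**Figure D2:**
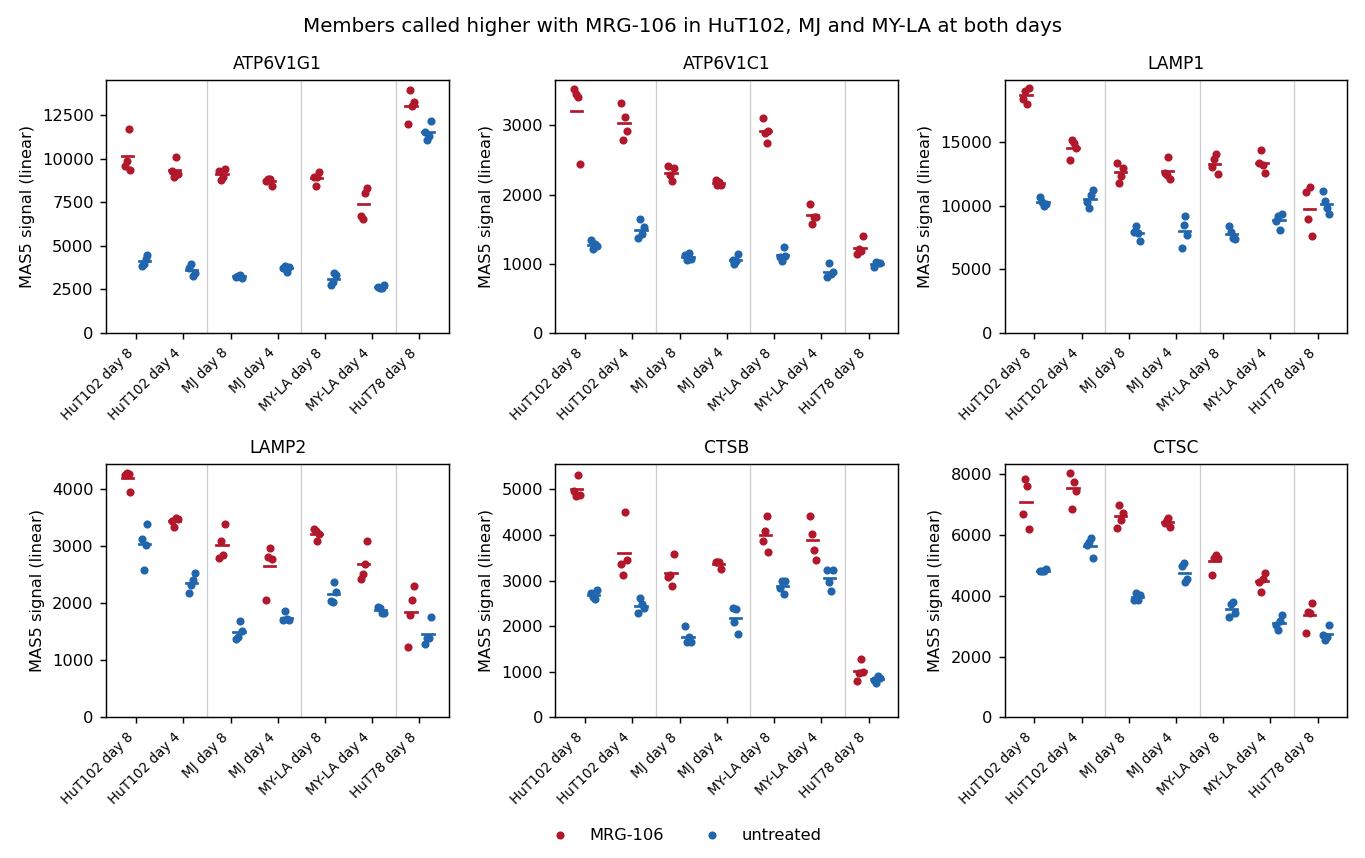
MAS5 signal (linear axis from 0) on every array for the 6 members called higher in HuT102, MJ and MY-LA at both days, with MRG-106 (red) left of untreated (blue); points are arrays and bars are group means of 4. In those 3 lines all treated arrays lie above all untreated arrays of the same line and day for these genes. The HuT78 groups lie closer together, though ATP6V1C1 (0.30), CTSC (0.29) and LAMP2 (0.31) were called higher there over all arrays. No other tested ATP6V1C1 probe set was called in HuT78, and another LAMP2 probe set was called lower. For CTSC, other probe sets than the one shown were called lower in MY-LA at day 8.

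Among cathepsins and peptidases, CTSB and CTSC rose in all 6 comparisons and CTSD and TPP1 in 5. CTSB, a cysteine protease, read 4970, 4853, 5319 and 4874 with MRG-106 in HuT102 at day 8, against 2724, 2641, 2594 and 2784 untreated. The change was 0.89 ± 0.10 (SE; adjusted p = 3.64e-11, limma), and 23 of 24 tests of its other probe sets over the 6 comparisons were called higher. CTSC, which activates granule serine proteases in lymphocytes, read 6245, 6976, 6504 and 6737 with MRG-106 in MJ at day 8, against 3875, 4083, 3873 and 4027 untreated, a change of 0.74. Its probe sets disagree in MY-LA. At day 8 the one used gave 0.52, and the others gave -0.68 and -0.69, both called, and 0.02, not called. At day 4 the one used gave 0.52, and the others gave 0.09, -0.16 and -0.58, none of them called. Over the 6 comparisons its other probe sets were tested 18 times, with 9 called higher, 2 lower and 7 not called.

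CTSD, an aspartic protease, had the largest change of any member in any comparison of MRG-106 with untreated. In HuT102 at day 8 it read 2151, 2239, 1984 and 2918 with MRG-106, against 706, 658, 758 and 766 untreated. The lowest treated array is more than 2-fold above the highest untreated one, and the change was 1.65 ± 0.14 (SE; adjusted p = 2.2e-14, limma), a factor of 3.14. CTSD in MJ at day 8 read 935, 1165, 1047 and 1082 with MRG-106, against 580, 550, 513 and 457 untreated, a change of 0.99. Its change in MY-LA at day 4 was 0.01 with overlapping groups, and at day 8 it was 0.53. TPP1, a tripeptidyl peptidase, rose by 0.70 in HuT102, 0.43 in MJ and 0.30 in MY-LA at day 8. Of 11 tests of its other probe sets where it was called, 5 were called higher and 6 were not called. CTSA, the protective protein of lysosomal sialidase, rose in MJ (0.62 at day 8, 0.55 at day 4) and in MY-LA at day 8 (0.60).

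CTSS, a protease of antigen processing, was called lower in MY-LA at both days (-0.43 each) and higher in MJ at day 4 (0.33), where its adjusted p lay at the threshold. The MY-LA groups overlap, and neither of the 2 tests of its other probe sets in MJ at day 4 was called. CTSZ was called lower in HuT102 at day 8, where it read 149, 131, 107 and 157 with MRG-106, against 304, 255, 391 and 288 untreated. Those groups do not overlap, and the change was -1.09 ± 0.31 (SE; adjusted p = 0.00373, limma). CTSL averaged 3241 ± 360 with MRG-106 and 5303 ± 328 untreated in HuT102 at day 8 (SD, n = 4 each), groups that do not overlap. The change was -0.71 ± 0.35 (SE; adjusted p = 0.105, limma), so it was not called. At day 4 it averaged 3329 with MRG-106 and 5730 untreated, again without overlap (-0.79, adjusted p = 0.103, limma). In the other lines the CTSL probe set stayed low, with means of 198 with MRG-106 and 215 untreated in MJ at day 8, and 24.5 and 25.8 in MY-LA. The fit takes 1 spread per gene over all arrays, so the SE in HuT102 also draws on these low signals. The missing CTSL call is therefore no sign that HuT102 was unchanged.

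The 5 glycosidases differed in the lines where they rose. GLA, alpha-galactosidase A, read 2331, 2381, 2349 and 2519 with MRG-106 in MJ at day 8, against 1387, 1388, 1440 and 1257 untreated, a change of 0.80 ± 0.07 (SE; adjusted p = 8.37e-13, limma). MY-LA at day 4 gave 3411, 3634, 3752 and 4002 with MRG-106, against 2186, 2150, 2248 and 2413 untreated, a change of 0.71. In HuT102 GLA was not called, with changes of -0.11 at day 8 and -0.18 at day 4. GUSB, beta-glucuronidase, was called higher in MJ (0.41 at day 8) and MY-LA (0.41 at day 8) but lower in HuT102 at day 8, where it read 3275, 3328, 3165 and 3548 with MRG-106, against 4076, 3791, 4008 and 4161 untreated. GAA, the glycogen-degrading enzyme, rose in HuT102 at day 8 (0.53) and in MJ (0.55 at day 8, 0.56 at day 4). NEU1, the sialidase that CTSA protects, rose at day 8 in HuT102 (0.33), MJ (0.32) and MY-LA (0.33) and was not called at day 4. HEXA, a subunit of beta-hexosaminidase, rose in HuT102 at day 4 (0.35) and in MY-LA at day 8 (0.32), and none of the 4 tests of its other probe sets was called.

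Of the lipid-handling proteins, PSAP, the precursor of the saposins that present sphingolipids to their hydrolases, rose most in HuT102. At day 8 it read 9217, 11470, 9663 and 11468 with MRG-106, against 4258, 4344, 4441 and 4627 untreated. No treated array comes near an untreated one, and the change was 1.23 ± 0.09 (SE; adjusted p = 2.96e-16, limma). In MJ it rose by 0.63 at day 8 and 0.32 at day 4. In MY-LA PSAP was not called, at 0.15 on day 8 and 0.24 on day 4. ASAH1, acid ceramidase, rose in MY-LA (0.44 at day 8, 0.66 at day 4), and at day 8 in HuT102 (0.35) and MJ (0.29). SMPD1 averaged 475 with MRG-106 and 361 untreated in HuT102 at day 8, without overlap. The change was not called (0.38 ± 0.24 SE, adjusted p = 0.219, limma). That SE also draws on low HuT78 signals, with means of 66.3 with MRG-106 and 61.6 untreated. The missing call is therefore no sign that SMPD1 was unchanged in HuT102.

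LIPA, the acid lipase that frees cholesterol from its esters, went opposite ways in 2 lines. In HuT102 at day 8 it read 23952, 22929, 24285 and 21611 with MRG-106, against 15643, 14278, 15613 and 16969 untreated, a change of 0.57 ± 0.07 (SE; adjusted p = 3.56e-10, limma). In MY-LA at day 8 it read 4865, 5117, 4831 and 4491 with MRG-106, against 8034, 8673, 9377 and 9708 untreated, a change of -0.89 ± 0.07 (SE; adjusted p = 4.86e-16, limma). Neither pair of groups overlaps. In MJ it fell at day 4 (-0.30) and was not called at day 8 (-0.07). NPC2, the soluble cholesterol carrier, fell in MJ at day 8 (-0.30).

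The transcription factors did not move together. TFEB in HuT102 at day 8 read 3395, 3201, 2917 and 3938 with MRG-106, against 1866, 2205, 2014 and 1961 untreated, a change of 0.73 ± 0.11 (SE; adjusted p = 5.92e-07, limma). MJ arrays at day 8 read 238, 283, 331 and 355 with MRG-106, against 702, 617, 632 and 661 untreated, a change of -1.09 ± 0.11 (SE; adjusted p = 3.84e-11, limma). The HuT102 groups are separate upward and the MJ groups separate downward, and another TFEB probe set was called the same way in the 3 comparisons of these lines in which this one was called. In MY-LA TFEB was not called, at -0.14 on day 8 and 0.05 on day 4. TFE3 fell in MY-LA at day 8, where it read 1333, 1259, 1375 and 1353 with MRG-106, against 1891, 1769, 1698 and 1940 untreated, a change of -0.45. At day 4 in that line TFE3 read 1319, 998, 1623 and 1483 with MRG-106, against 1856, 1906, 1870 and 1908 untreated, a change of -0.49 (adjusted p = 0.00502, limma). It was not called in HuT102 or MJ. MITF stayed near the bottom of the scale, with group means from 21.2 (MRG-106) and 29.5 (untreated) in MY-LA to 131 (MRG-106) and 71.1 (untreated) in HuT102 at day 8. Its 1 call, higher in MJ at day 4, rests on 192, 63.9, 126 and 95.1 with MRG-106, against 62.5, 46.4, 54.6 and 50.0 untreated.

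Set beside the promoter letters, the 6 members with TCACGTGA did not share a pattern. ATP6V1G1 and LAMP1 rose in all 6 comparisons, CTSA and GAA in 3 each, ATP6V0D1 in 2 and MCOLN1 in 1. In MJ at day 8, ATP6V1G1, LAMP1, CTSA and GAA were called higher, by 1.49, 0.68, 0.62 and 0.55, while ATP6V0D1 (0.09) and MCOLN1 (-0.20) were not called.

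The day-8 changes of many members differed between lines. The F test of the change among the 4 lines was called for 36 of 39 members, beside 64.7% of genes. That test includes HuT78, the line with little miR-155 host transcript, and its MRG-106 arrays that stood apart. Between pairs of lines, 17 of 41 members differed for HuT102 minus MJ (28.0% of genes), 18 of 40 for HuT102 minus MY-LA (38.8%) and 21 of 39 for MJ minus MY-LA (33.6%). The HuT102 minus MY-LA count lies near the share of all genes. TFEB gave the largest pairwise difference, 1.82 higher in HuT102 than in MJ (adjusted p = 3.75e-13, limma). LIPA differed by 1.46 between HuT102 and MY-LA (adjusted p = 2.46e-18). CTSD changed by 0.66 more in HuT102 than in MJ and by 1.12 more than in MY-LA. ATP6V0A2 had -0.22 in HuT102, not called, and -1.28 in MJ, a difference of 1.06. ATP6V1G1 did not pass the test for any pair of these lines, with differences of -0.20, -0.22 and -0.02.

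**Figure D3:**
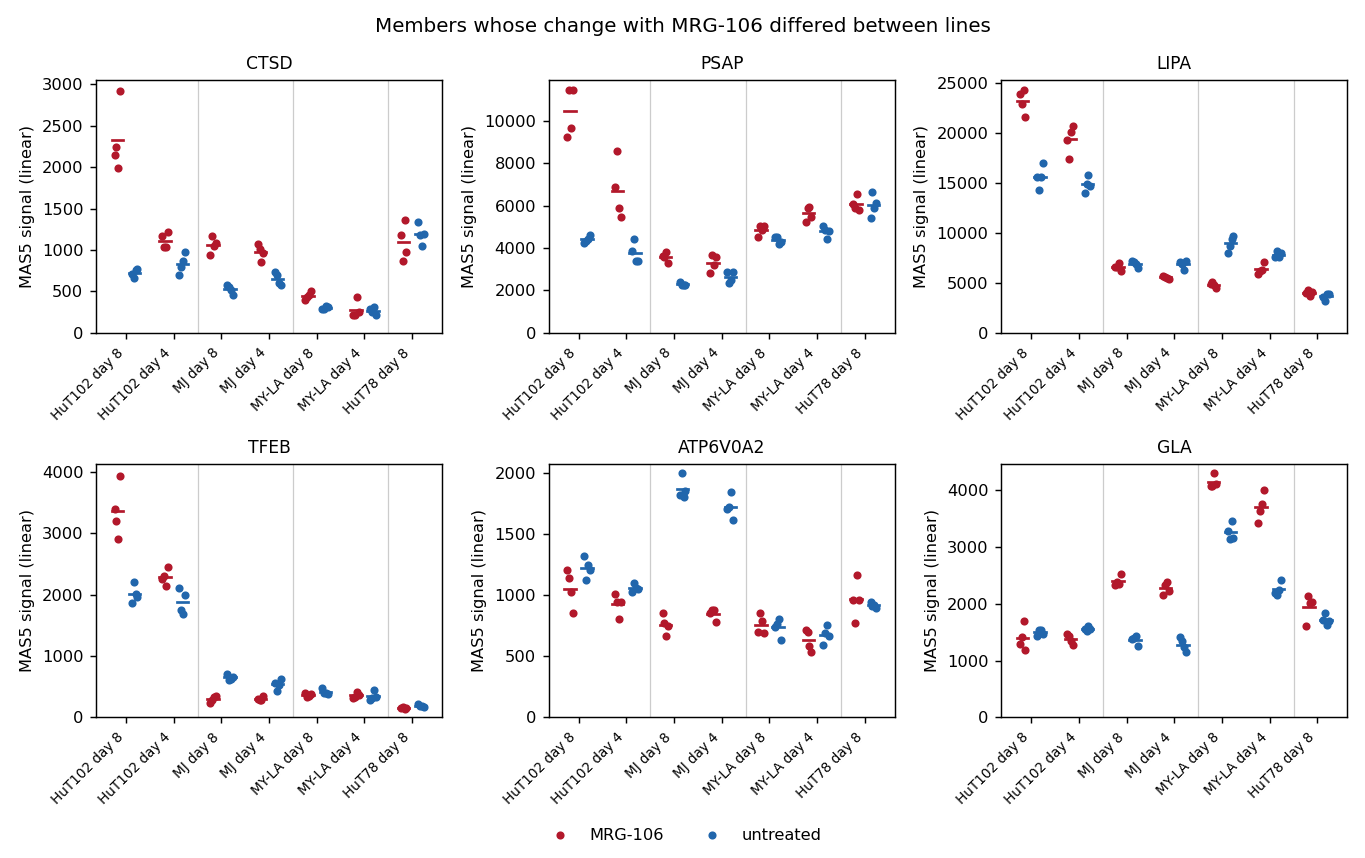
MAS5 signal (linear axis from 0) on every array for 6 members whose day-8 change differed between lines, with MRG-106 (red) left of untreated (blue); points are arrays and bars are group means of 4. TFEB and LIPA are higher with MRG-106 in HuT102; TFEB is lower in MJ and LIPA lower in MY-LA; ATP6V0A2 is lower in MJ.

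Where lines differ, so do some other signals. The summed fibroblast-marker signal in MY-LA, 2488 to 2671 with MRG-106 and 3611 to 4450 untreated at day 8, was lower with the inhibitor, and 1 of the 6 markers with MRG-106 and 3 untreated reached signal 74.0. The same sum in MJ at day 8 was 3250 to 3497 with MRG-106 and 2194 to 2442 untreated, with 3 of 6 markers reaching that level. In HuT102 it was 198 to 339 with MRG-106 and 185 to 309 untreated. The part of these signals in the members' changes was not tested. HuT102 and MJ also share 1 range of sample serial numbers and HuT78 and MY-LA another, so line and range cannot be told apart, while MRG-106 and untreated arrays stand in equal numbers in each. In MY-LA each group is 1 unbroken run of serial numbers, so there serial order and treatment cannot be told apart; in the other lines the numbers of MRG-106 and untreated arrays alternate.

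The change with MRG-106 differed between days for some members. In HuT102 the change at day 8 minus that at day 4 was called for 5 of 41 members, beside 7.20% of genes. CTSD had 1.65 at day 8 and 0.42 at day 4, a difference of 1.24 (adjusted p = 1.3e-05, limma). ATP6V0A1, PSAP and LAMP1 also had higher changes at day 8, by 0.70, 0.42 and 0.40, and CD63 a lower one, by -0.40. The sign turned for ATP6V0A1 (-0.18 at day 4, 0.52 at day 8) and CD63 (0.11 at day 4, -0.29 at day 8). In MY-LA 8 of 37 members were called, a count near the share of all genes, 17.0%. CTSA (0.64), ATP6V1C1 (0.43), NEU1 (0.36), ATP6V1B2 (0.34) and ATP6V1H (0.25) had higher changes at day 8 than at day 4. LIPA (-0.59), ATP6V1D (-0.39) and GLA (-0.37) had lower ones. GLA was raised at both days, by 0.71 at day 4 and 0.34 at day 8. ATP6V1D went from 0.26 to -0.13, and ATP6V1B2 from -0.22 to 0.11. In MJ 0 of 41 members were called, beside 1.35% of genes, and limma gave 7 at an unadjusted p under 0.05.

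**Figure D4:**
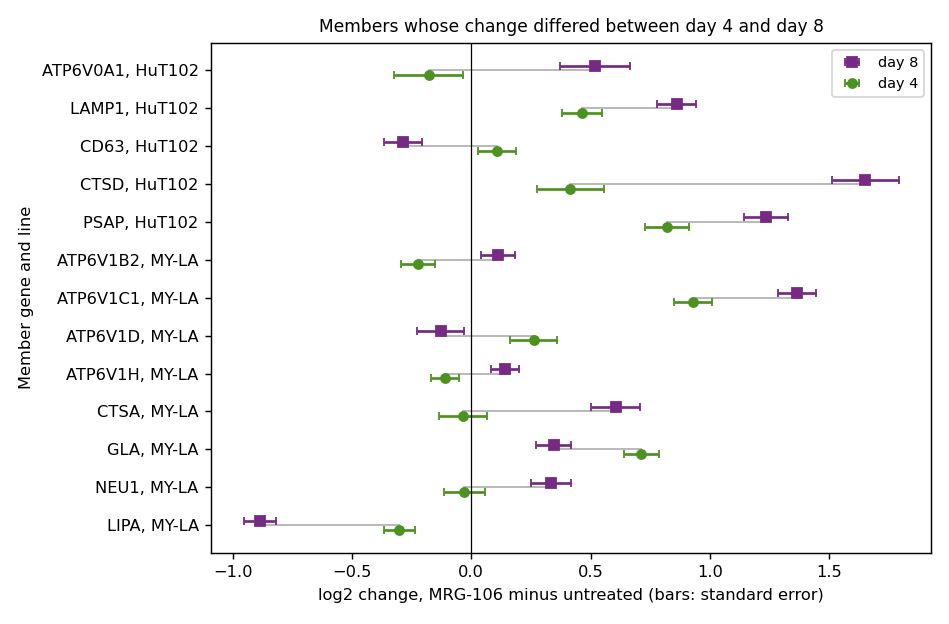
Log2 change of (signal + 16), MRG-106 minus untreated, at day 8 (squares) and day 4 (circles) for the 13 pairs of member and line whose change differed between days in limma; bars are standard errors. CTSD in HuT102 has 1.65 at day 8 and 0.42 at day 4, and LIPA in MY-LA has -0.89 at day 8 and -0.30 at day 4.

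Untreated cells changed with time too. At day 8 against day 4, 14 of 36 members differed in untreated MY-LA (10 higher, 4 lower), beside 13.1% of genes, with GLA (0.53), ATP6V1D (0.41) and ATP6V1E1 (0.39) the most raised and TPP1 (-0.43) the most lowered. In untreated HuT102, 5 of 41 differed, beside 8.70% of genes: CTSS (0.54), NPC2 (0.43), LAMP2 (0.35) and ATP6V1G1 (0.21) higher and CTSC (-0.22) lower. In untreated MJ only CTSC differed among 40 members, by -0.26, beside 1.61% of genes.

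The lines also started from different levels. Over untreated arrays at day 8, each line was set against the mean of the other 3. HuT102 differed in 33 of 40 members (30 higher, 3 lower), beside 67.6% of genes. MJ differed in 28 (9 higher, 19 lower), beside 60.2%. MY-LA differed in 30 (16 higher, 14 lower), beside 71.9%. HuT78 differed in 32 (9 higher, 23 lower), beside 75.8%. The MY-LA and HuT78 counts lie near those shares, and the MJ count is only somewhat above its share. The median member difference was 0.31 in HuT102 and -0.28 in HuT78, beside -0.04 and 0.01 for all genes.

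ATP6V1G1 and TFEB had widely different levels in untreated cells. ATP6V1G1 averaged 11510 ± 465 in untreated HuT78, against 4132 ± 288 in HuT102, 3238 ± 48.7 in MJ and 3119 ± 315 in MY-LA (SD, n = 4 each). HuT78 was 1.73 above the mean of the other lines, and every untreated HuT78 array lies above the MRG-106 means of those lines at day 8, which were 10137, 9107 and 8881. TFEB averaged 2012 ± 143 in untreated HuT102, 653 ± 37.4 in MJ, 413 ± 43.5 in MY-LA and 189 ± 19.9 in HuT78. LIPA was likewise highest in HuT102 (15626 ± 1098) and lowest in HuT78 (3643 ± 355). SCARB2 averaged 3622 ± 372 in HuT102 and 24.8 ± 8.45 in MY-LA, where the probe set is below signal 74.0.

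**Figure D5:**
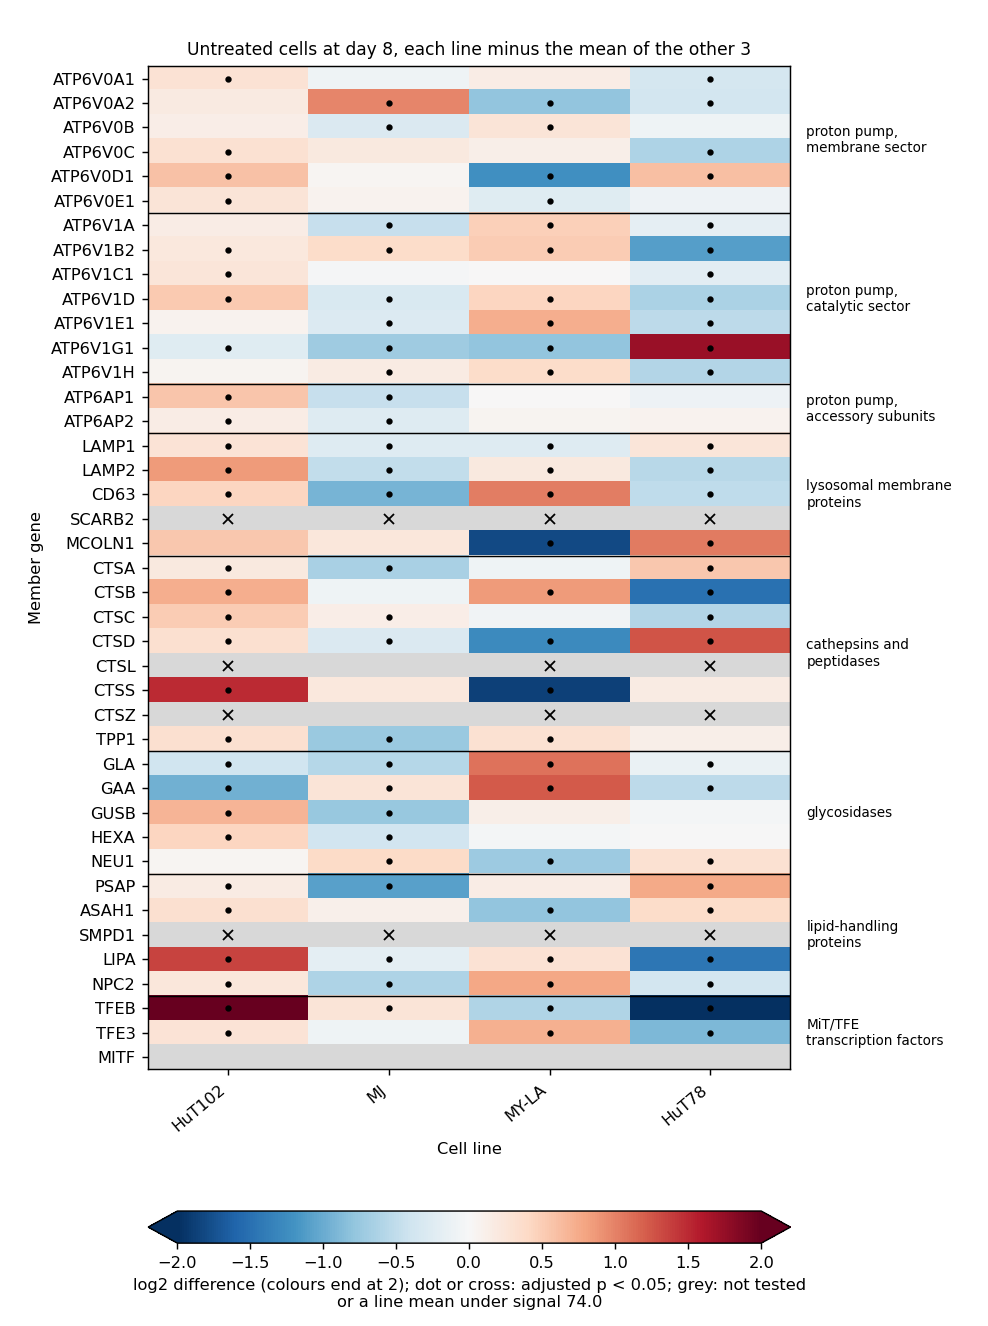
Log2 difference of (signal + 16) between each untreated line at day 8 and the mean of the other 3, for 41 members (rows, by role). Dots mark calls in limma and grey marks genes not tested or with a line mean under signal 74.0 (crosses there are calls). HuT102 is mostly red, HuT78 mostly blue, and ATP6V1G1 in HuT78 is the strongest red outside the grey rows and TFEB.

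HuT78, the line with little miR-155 host transcript, gave 10 of 37 members called higher and 3 lower with MRG-106, beside 10.7% and 11.4% of genes. The 2 groups of arrays do not overlap for 2 of the 37, ATP6V1C1 and TPP1, beside 9.12% of genes. ATP6V1C1 read 1136, 1218, 1181 and 1397 with MRG-106, against 950, 1019, 1015 and 1012 untreated, a change of 0.30 (adjusted p = 0.00659, limma). TPP1 read 2288, 1894, 2210 and 1667 with MRG-106, against 2469, 2579, 2586 and 2339 untreated, a change of -0.32. No other tested probe set of ATP6V1C1 or TPP1 was called in HuT78. GAA shows the split of the treated arrays: it read 279 on array 1 and 177, 175 and 159 on arrays 2, 3 and 4 with MRG-106, against 296, 325, 314 and 279 untreated. The largest called rises over all arrays were HEXA (0.54), ATP6V1D (0.44), ATP6V1E1 (0.38) and ATP6V0E1 (0.37). With array 1 alone as the treated sample these changes were 0.021 for HEXA, -0.030 for ATP6V1D, 0.06 for ATP6V1E1 and 0.07 for ATP6V0E1. On that array alone ATP6V1C1 had 0.18, TPP1 -0.12 and GAA -0.11. LAMP2 had 0.31 over all arrays and -0.22 with array 1 alone. Another LAMP2 probe set was called lower over all arrays, and the rest were not called. CTSC was called higher over all arrays (0.29, adjusted p = 0.00322, limma), with overlapping groups. Its array 1 read 2772, within the untreated range of 2550 to 3053. With array 1 as the only treated sample, whose spread is then assumed to match that of the other groups, limma called 0 of the HuT78 members in either direction. A fit of the 8 HuT78 arrays alone also called 0 of 37, with 12 at an unadjusted p under 0.05. ATP6V1G1 read 11975, 13960, 13000 and 13241 with MRG-106, against 11558, 11061, 11283 and 12138 untreated, and was not called (0.18, adjusted p = 0.0519); with array 1 alone it had 0.06.

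Other genes of the organelle, in 5 lists, numbered 121, of which 107 had a probe set. Their counts are read beside the shares of all genes called higher and lower: at day 8 19.0% and 21.2% in HuT102, 15.1% and 18.6% in MJ, and 23.5% and 18.3% in MY-LA. At day 4 these shares were 10.0% and 13.0% in HuT102, 13.0% and 14.2% in MJ, and 13.4% and 12.9% in MY-LA. Of the 92 tested in all 6 comparisons of HuT102, MJ and MY-LA, 5 were called higher in all 6 and 0 lower: GALC, OSTM1, RHEB, ATG3 and VPS18. Over all 9766 genes tested in all 6, 2.36% were called higher in all 6 and 0.963% lower. GALC, the galactosylceramide-degrading enzyme, rose by 0.69 to 0.94. OSTM1, the partner of the lysosomal chloride transporter, rose by 0.61 to 1.32. RHEB, the GTPase that activates mTORC1 on the lysosome, rose by 0.56 to 1.13. The autophagy genes ATG3 and VPS18 rose by 0.28 to 0.84 and 0.35 to 0.80.

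Among other lysosomal enzymes (33 listed, 25 with a probe set), 7 of 24 tested were called higher and 3 lower in HuT102 at day 8, 9 and 1 of 25 in MJ, and 7 and 2 of 21 in MY-LA. At day 4 the enzymes gave 6 and 2 of 24 in HuT102, 9 and 2 of 25 in MJ, and 3 and 0 of 21 in MY-LA. LGMN, the asparaginyl endopeptidase that processes cathepsins, averaged 430 ± 64.3 with MRG-106 and 41.5 ± 37.2 untreated in HuT102 at day 8 (SD, n = 4 each; adjusted p = 1.65e-10, limma). In MJ at day 4 it averaged 306 ± 104 with MRG-106 and 28.6 ± 18.7 untreated (adjusted p = 4.41e-09, limma), and it was called higher at day 8 as well. Both untreated means lie below signal 74.0, so no fold is given. In MY-LA LGMN was not called, with 435 ± 149 with MRG-106 and 273 ± 131 untreated at day 8.

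Of other lysosomal membrane and transport proteins (20 with a probe set), 6 of 19 were called higher and 1 lower in HuT102 at day 8, 7 and 2 of 18 in MJ, and 8 and 3 of 19 in MY-LA. At day 4 they gave 5 and 2 of 19 in HuT102, 4 and 3 of 18 in MJ, and 5 and 4 of 19 in MY-LA. GNPTAB, which tags enzymes for delivery to lysosomes, fell in MJ at both days (-1.26 at day 8), rose in HuT102 (0.53 at day 8, 0.30 at day 4) and rose in MY-LA at day 4 (0.33). Of other proton pump subunits and assembly factors (13 with a probe set), 4 of 10 were called higher and 2 lower in HuT102 at day 8, 3 and 1 of 10 in MJ, and 4 and 2 of 9 in MY-LA. Day 4 gave 1 and 1 of 10 in HuT102, 3 and 1 of 10 in MJ, and 0 and 1 of 10 in MY-LA. ATP6V0E2, a second form of the e subunit, fell in HuT102 (-0.41 at day 8, -0.68 at day 4) and MJ (-0.38 at day 8) and rose in MY-LA at day 8 (0.24).

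Of the genes for mTORC1 docking (20 with a probe set), 8 of 20 were called higher and 1 lower in HuT102 at day 8, 2 and 2 of 20 in MJ, and 8 and 4 of 19 in MY-LA. Day 4 gave 2 and 0 of 20 in HuT102, 3 and 2 of 20 in MJ, and 2 and 6 of 18 in MY-LA. RRAGD, a Rag GTPase, rose in HuT102 (1.31 at day 8, 0.63 at day 4) and in MY-LA at day 8 (0.42). Of 29 autophagy genes, 15 of 28 tested were called higher and 6 lower in HuT102 at day 8, 8 and 5 of 28 in MJ, and 11 and 8 of 27 in MY-LA. For autophagy day 4 gave 6 and 3 of 28 in HuT102, 5 and 6 of 28 in MJ, and 5 and 5 of 26 in MY-LA. SQSTM1, the autophagy receptor p62, rose at day 8 in HuT102 (1.16), MY-LA (0.86) and MJ (0.39).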

How the data were processed

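MRG-106 and untreated arrays were taken as the labels name them, 4 per group of line, day and treatment. The deposited values are MAS5 signal intensities for 54675 probe sets on a linear scale, and their trimmed mean is nearly equal on every array; MAS5 is named in the submitters' processing notes, its version and settings are not given in the sources used here. Probe sets were named from the platform annotation: 41091 carry 1 symbol, 1801 several and 11721 none, beside 62 control probe sets. Each gene was represented by its probe set of highest mean signal.

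Signals were transformed to log2(signal + 16) and fitted in limma 3.58.1 (R 4.3.3) as 14 group means, with eBayes and an intensity trend. A gene entered a test where its average log2 value in the groups set against each other was at least 6.49 (signal 74.0, the median over the whole table). The p-values were adjusted by Benjamini-Hochberg over all genes tested. The scripts were tested on simulated data. Tables were made in Python 3.11.15 (pandas 2.3.3; NumPy 2.4.6; SciPy 1.17.1), figures in Matplotlib 3.10.9. Precision is limited by the 4 arrays per group.

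The members and all lists were chosen with earlier results of these data known. Values of every array are given for, in each MRG-106 comparison, the called members that rose most and those that fell most (up to 4 of each, where groups do not overlap and both means reach the filter), plus TFEB, TFE3 and MITF; SCARB2, MCOLN1, GAA and repeats in other lines or days were added after their values were seen. Of the other lists, up to 4 called genes with the largest change per comparison could be named; ATP6V0E2 in MY-LA and genes called in all 6 comparisons were named besides. As all arrays share that mean, a change in total RNA per cell is not seen. Alternatives were another added value, filters, no trend, quantile normalization, fits by line, each array left out, every probe set, a fit without HuT78, and HuT78 with MRG-106 array 1 alone; the last 2 were chosen after seeing the data.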

Additional observations from a re-analysis of the deposited data

Results flagged for a closer look

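In 3 of 92 sets of 4 arrays behind the named values, 1 array lay far from the other 3 of its group, where chance gives about 1 in 20; over all members it was 22 of 574. ATP6V1C1 read 2439 on 1 MRG-106 array of HuT102 at day 8, against 3403 to 3523 on the other 3, and 950 on 1 untreated HuT78 array. ATP6V1A read 4901 on 1 MRG-106 array of MY-LA at day 4.

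The day-8 change differed among the 4 lines for 36 members in limma, between HuT102 and MJ for 17, between HuT102 and MY-LA for 18, and between MJ and MY-LA for 21. It differed between days for 5 members in HuT102 and 8 in MY-LA. Several members were called in opposite directions in 2 lines at day 8 and their difference was called too. For HuT102 minus MJ the differences were 1.82 for TFEB, 0.59 for ATP6V1A, -0.69 for CD63 and -0.68 for GUSB. For HuT102 minus MY-LA they were 1.46 for LIPA, 0.93 for ATP6V1A and -0.67 for GUSB. For MJ minus MY-LA it was -0.37 for ATP6V1H, whose other tested probe set was not called in either line. The other tested ATP6V1A probe set was called lower in MJ and MY-LA but was not called in HuT102.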

How the results depend on the processing

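No paired analysis was possible because the labels carry only serial numbers, so groups share no replicate numbers. HuT78 depended most on the processing: fitted on its own 8 arrays it gave 0 members higher and 0 lower, and with MRG-106 array 1 alone 0 and 0, where ATP6V0C (0.14), ATP6V1D (-0.030), CD63 (-0.0032) and LAMP2 (-0.22) also turned sign; every probe set on its own gave 6 lower. For HuT102 at day 4, members called lower numbered 2 with log2(signal + 64), 1 with the filter at the 75th percentile, 1 in a fit of that line and 3 without HuT78 in the model, against 0. At day 8 they numbered 5 with log2(signal + 64) and 5 in a fit of that line. Differences between days came to 8 in HuT102 with log2(signal + 64) and 9 in a fit of that line, to 3 in MJ in a fit of that line, 1 without HuT78 and 1 over every probe set, and to 16 in MY-LA over every probe set. The untreated time difference gave 3 in HuT102 and 0 in MJ with no filter or with no intensity trend, and 2 in MJ in a fit of that line. The causes were not tested.

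Leaving out 1 array at a time gave, for HuT102 at day 8, 21 to 23 higher and 3 to 4 lower; at day 4, 11 to 13 and 0 to 1. MJ gave 18 higher and 4 to 6 lower at day 8, and 14 to 16 and 5 to 6 at day 4. MY-LA gave 15 to 18 and 4 to 5 at day 8, and 9 to 12 and 2 to 5 at day 4. HuT78 gave 7 to 13 and 1 to 4. Day differences ranged from 3 to 6 in HuT102, 0 to 0 in MJ and 5 to 9 in MY-LA, and untreated time differences from 2 to 5, 0 to 2 and 8 to 16. Pairs of lines gave 15 to 18, 16 to 21 and 14 to 20, the test among 4 lines 33 to 36. Single arrays that moved a count by over 1.5 times were, for members lower in MY-LA at day 4 (5), MRG-106 arrays 2 (2) and 4 (3) and untreated array 4 (3); for HuT78 lower (3), MRG-106 array 4 (1); for HuT102 lower at day 4 (0), MRG-106 array 4 and untreated array 4 (1 each); for the day difference in HuT102 (5), day-8 MRG-106 array 4, day-4 MRG-106 array 1 and day-4 untreated arrays 2 and 4 (3 each), and in MY-LA (8), day-4 MRG-106 array 4 and day-8 untreated array 4 (5 each). The untreated time difference moved so without day-8 arrays 3 (8) or 4 (9) in MY-LA, without day-8 arrays 1, 3 or 4 or day-4 arrays 1 or 3 in HuT102 (2 to 3), and without 7 of 8 arrays in MJ. Of the calls, 24 of 25 in HuT102, 22 of 24 in MJ and 17 of 23 in MY-LA at day 8 held without any 1 array, and 7 of 13 in HuT78. The fit without HuT78 and that with array 1 alone were chosen after seeing the data. Genes near signal 74.0 are least certain.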
